A study of Homo sapiens with 14 samples.

Results

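EFO21, a cell line labelled as ovarian carcinoma, was compared with 5 other cancer cell lines by GLORI, a sequencing method that reads N6-methyladenosine (m6A) at single bases. The account covers the 2 EFO21 libraries of the 14 in the series and the 10 DMSO libraries of the other lines. The members were the 68873 of 407343 listed sites with at least 20 reads (A plus G) in every one of these 12 DMSO libraries, and EFO21 was set against the mean of the 5 other lines with each line weighted equally. The groups were EFO21 cells given DMSO for 24 h, then A549 (lung carcinoma), CAOV3, COV644 and SKOV3 (ovarian carcinoma) and OE21 (oesophageal carcinoma) cells, each given DMSO for 24 h, with 2 libraries a line. CAOV3 cells treated with STM3675 make up the rest of the series and were not analysed here. Each group is a single established line, so a difference between EFO21 and the rest is a difference between lines and not between tumour types. The labels do not say whether the 2 libraries of a line came from separate cultures, so p-values rest on a spread between libraries that may be technical. In the site tests this spread was pooled over all sites. A p-value there thus reflects read depth and the pooled spread, and not the spread at its own site.

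m6A is written onto mRNA in the nucleus by a methyltransferase complex built around METTL3 and METTL14, mostly at adenosines inside the DRACH motif (D is A, G or U, R is A or G, H is A, C or U). It is dense near stop codons and in long exons, and readers such as the YTHDF proteins couple it to mRNA decay and translation. In GLORI, glyoxal and nitrite turn unmethylated adenosine into inosine, which is read as G, while m6A is still read as A. The methylation level of a site is therefore the share of A among A and G reads. An adenosine that escaped conversion also counts as A, and a G read counts as unmethylated whatever its origin.

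Some listed sites lie at the first bases of transcripts, where adenosine next to the cap can be methylated without a DRACH motif. These sites are shown first because RefSeq gives the bases around them. At 22 non-DRACH sites within 10 nt of an annotated first-exon start and with a mean level of 25% or more, the mean level was 47.0% and 48.7% in the EFO21 libraries and 42.3% to 53.1% in the 10 others. The windows below are RefSeq sequence on GRCh38.p14, 5′ to 3′ on the transcript strand, with the 5 bases centred on the measured adenosine in capitals; they are ID1 (chr20:31605277-31605301, plus strand), DDX5 (chr17:64506277-64506301, minus strand), TUBB4B (chr9:137241275-137241299, plus strand) and ATF4 (chr22:39520551-39520575, plus strand).
ID1: ctccgcactcTCATTccacgttctt
DDX5: aaagcggccgGCACCtcattcattt
TUBB4B: agcgtcggttGTAGCactctgcgcg
ATF4: gccacggcagCCATTtctactttgc
ID1, which encodes an inhibitor of DNA binding that blocks helix-loop-helix transcription factors, was the only one of the 22 called against the 5 lines, and it was also called against A549, CAOV3 and SKOV3: its start-site level was 58.5% and 61.0% in EFO21 against 37.4% to 48.8% in the others. It was 16.4 percentage points above the mean of the 5 lines (quasi-binomial logistic model over all covered sites, Benjamini-Hochberg adjusted p = 1.13e-16). DDX5, an RNA helicase, had 89.5% and 90.6% in EFO21 and 66.3% to 87.7% in the others, with groups that did not overlap but no call (adjusted p = 0.146 in the same model). TUBB4B, a beta-tubulin, had 86.4% and 93.7% in EFO21 against 84.4% to 93.6%, and ATF4, a stress-response transcription factor, had 26.5% and 20.8% against 21.7% to 59.1%. The start site of S100A6, a calcium-binding protein, was lower against A549, CAOV3 and SKOV3 alone (difference -11.6 points, adjusted p = 0.0151), with 19.2% and 21.8% in EFO21 and 16.2% to 39.4% in the 10 others.

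EFO21 had a mean DRACH methylation level in the middle of the 6 lines, on a conversion background in the upper part of their range. Total A plus G reads at listed sites were 17971450 and 14047302 in EFO21, the second being the lowest of the 12 libraries, and the highest was 25492907. The median level at covered non-DRACH sites, a rough measure of unconverted adenosine, was 10.7% and 13.6% in EFO21, 10.5% and 10.5% in A549, 10.9% and 11.1% in CAOV3 and 11.1% and 14.3% in SKOV3, but 4.76% and 3.77% in COV644 and 4.38% and 4.17% in OE21. Because these medians differed, the m6A of sites and genes was tested against all 5 lines and against A549, CAOV3 and SKOV3, whose background is like that of EFO21. Each listed non-DRACH site had reached 25% in some library. The median thus depends on which libraries listed the sites and is not a neutral conversion rate. Values corrected with it share this limit. Over the 25015 covered DRACH sites whose mean over the 6 lines was at least 25%, the mean level was 58.3% and 58.6% in EFO21, 57.8% and 57.6% in A549, 62.6% and 63.9% in CAOV3, 57.2% and 57.1% in SKOV3, 60.2% and 61.2% in COV644 and 55.1% and 55.6% in OE21. EFO21 was thus 0.358 points below the mean of the 5 lines and 0.899 points below that of the 3 lines of like background, and after correction for each library's non-DRACH median it was 2.22 points below the 5. The difference turned with the level of the site: it was -0.744 points at 10990 sites of 25 to 50% and 0.466 points at 3795 sites of 90 to 100%.

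**Figure D1:**
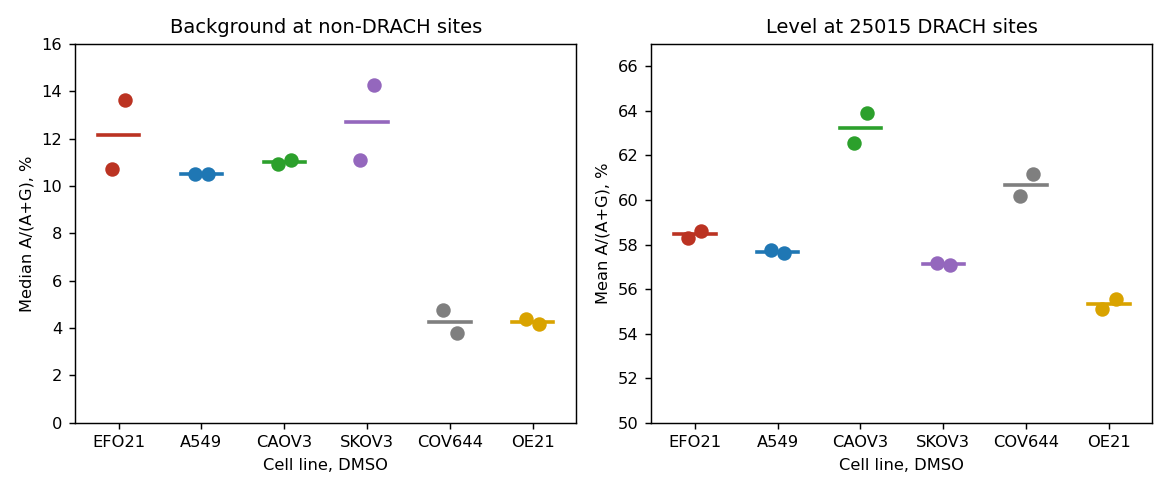
Median level at covered non-DRACH sites (left) and mean level at the 25015 DRACH sites whose mean was at least 25% (right), both in percent, for each of the 12 DMSO libraries (points) and each line (bars, means). EFO21 shares a background above 10% with A549, CAOV3 and SKOV3, and its mean DRACH level of 58.3% and 58.6% lies between those of CAOV3 and COV644 above and A549, SKOV3 and OE21 below; the axes do not start at the same value.

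Most DRACH sites had nearly the same level in EFO21 as in the other lines. Of the 25015 sites, 21874 (87.4%) lay within 10 points of the mean of the 5 lines and 236 lay beyond 20 points. The median absolute difference of EFO21 from the other 5 was 3.67 points. The same measure, each line against the other 5, was 3.46 for A549, 3.59 for SKOV3, 4.37 for COV644, 4.74 for OE21 and 5.30 for CAOV3, so EFO21 was among the lines closest to the rest.

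The tests per site ran over all 68873 covered sites, and a site was called at an adjusted p under 0.05 in the quasi-binomial model. Against the 5 lines, 3476 sites (5.05%) were higher and 1255 (1.82%) lower in EFO21; 2474 of the higher sites and 54 of the lower ones were outside DRACH. Against the 3 lines of like background, 792 sites (1.15%) were higher and 1543 (2.24%) lower. Some tested sites were listed through EFO21 alone, and there a higher level in EFO21 was built into the listing. With sites listed through another line, 832 were higher and 1053 lower against the 5 lines. Against the 3 lines, 525 were then higher and 1590 lower. Of the 38621 DRACH sites, 1002 (2.59%) were higher and 1201 (3.11%) lower against the 5 lines, and 479 (1.24%) higher and 1477 (3.82%) lower against the 3 lines. Of the 25015 among them with a mean of at least 25%, 2.19% were higher and 1043 (4.17%) lower against the 5 lines, and 386 (1.54%) higher and 1185 (4.74%) lower against the 3 lines. Among all tested sites lower calls were more numerous against the 3 lines. Higher calls were more numerous against the 5 lines, but not with sites listed through another line. Among DRACH sites lower calls were more numerous in both comparisons. Both comparisons called 320 of these 25015 sites higher and 866 lower. With at least 50 reads in every library and EFO21 libraries lying outside the range of the other 10 as well, 185 (1.20%) of 15428 DRACH sites were higher and 395 (2.56%) lower in EFO21. Leaving out 1 library moved the counts by over 1.5 times in some cases: against the 5 lines, 2170, 1804, 1917 and 1670 sites were higher without COV644 replicate 1 or 2 or OE21 replicate 1 or 2, 1687 were higher without EFO21 replicate 2, and 652 and 675 were lower without EFO21 replicate 1 and 2.

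The DRACH sites that were lower in EFO21 were mostly in last exons, and they made up a larger share of sites the farther these were from the start of that exon. In first exons (442 sites) the mean level was 59.3% and 59.8% in EFO21 against 53.2% to 61.8% in the others, 2.04 points above the 5 lines and 1.90 above the 3 lines of like background, and in internal exons (4270 sites) it was 60.0% and 60.3% against 55.7% to 63.3%, 1.16 and 1.00 points above. In last exons (18343 sites), which hold most stop codons and 3′ untranslated regions, it was 57.7% and 58.0% against 54.7% to 63.9%, a difference of -0.649 and -1.31 points. In genes of a single exon (807 sites) it was 66.5% and 66.6% against 65.3% to 72.8%, a difference of -2.30 and -2.25 points. After correction for the background the differences from the 5 lines were 0.476 points in first exons, -0.467 in internal exons, -2.57 in last exons and -3.95 in single exons, so the direction in internal exons turned while the order of the classes did not. The EFO21 libraries stayed within the range of the other 10 in each of these classes. Of the sites with at least 50 reads, those lower in both comparisons and without overlap were 6 of 2331 in internal exons, 337 (2.84%) of 11879 in last exons and 28 (6.06%) of 462 in single exons, while 30, 128 and 0 were higher.

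Along the last exon the difference from the 5 lines was -0.089 points within 150 nt of the exon start (54.1% and 54.2% in EFO21), -0.115 from there to 500 nt (61.0% and 61.4%) and -0.689 up to 1000 nt (58.5% and 58.6%). It was -1.30 from there to 2000 nt (55.5% and 55.8%), -2.09 up to 3000 nt (50.8% and 51.3%) and -3.19 beyond 3000 nt (48.3% and 49.3%). Against the 3 lines of like background these differences were between -0.275 in the first bin and -4.50 in the last. The EFO21 libraries stayed within the range of the other 10 in every bin. Beyond 3000 nt that range was 47.2% to 59.9%, with OE21 (mean 47.4%) below EFO21 and CAOV3 (59.0%) highest. Sites lower in both comparisons made up 51 (2.20%) of 2319 sites in the first bin and 50 (6.32%) of 791 beyond 3000 nt, where 2 sites were higher. The level at internal-exon sites in exons of over 200 and up to 1000 nt, less that of last-exon sites beyond 1000 nt, was 6.54 and 6.51 points in EFO21 against 0.520 to 5.40 points in the other 10, with no overlap. Within the 258 genes that had both kinds of site it was 11.2 and 11.4 points in EFO21 against 3.07 to 9.87 in the others. These position contrasts were chosen after the levels had been seen and are given without a test. Within last exons alone, the level up to 1000 nt less that beyond was 5.87 and 5.67 points in EFO21, inside the range of 2.16 to 6.12 in the others.

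**Figure D2:**
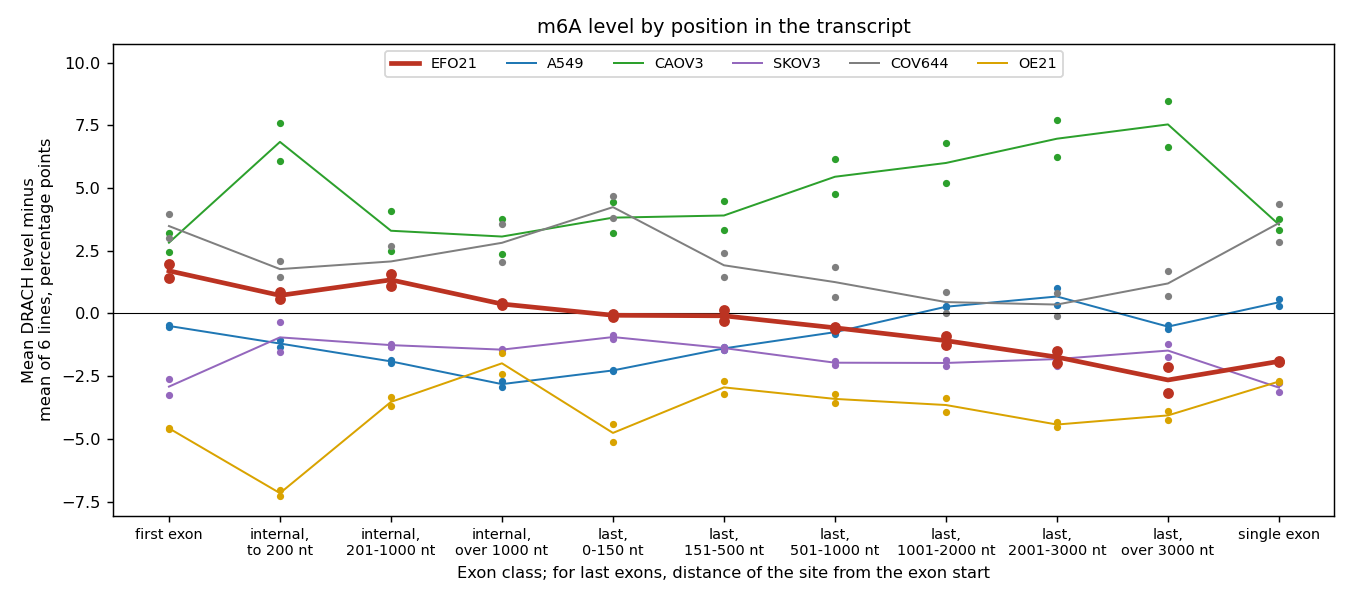
Mean DRACH level of each library minus the mean of the 6 lines, in percentage points, by exon class, with internal exons split by their length and last-exon sites by distance from the exon start; points are libraries and lines join the means of a line. Uncorrected for background, EFO21 lies above the mean of the lines in first and internal exons (after correction the internal-exon difference from the 5 lines is -0.467) and falls below it toward the far end of last exons. Beyond 3000 nt it was 3.19 points under the mean of the other 5 lines, with OE21 lower still.

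The difference also varied by motif. At GGACT, written in DNA letters as in the deposited table, the mean was 65.7% and 65.9% in EFO21 against 64.0% to 72.2% in the others, a difference of -1.30 points from the 5 lines and -1.98 from the 3 lines. At GAACT it was 60.6% and 60.8%, a difference of -1.04 and -1.32. At TGACA it was 45.1% and 45.6%, with differences of 1.54 and 0.712 that turned to -0.729 from the 5 lines after background correction. Of the 3080 GGACT sites with at least 50 reads, 35 were higher and 4.90% lower under both comparisons and without overlap. TGACT had 36 higher and 34 lower of 1919, and TGACA had none in either direction of 323.

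The DRACH sites with the largest losses in EFO21 lay in genes of many functions. At FAM83D, a spindle protein, an AGACT site in the last exon (chr20:38952026, plus strand, GRCh38 as are all site positions here, 487 nt into the exon) was read at 3.17% and 5.56% in EFO21 against 57.1% to 83.3% in the others, 65.4 points below the mean of the 5 lines (adjusted p = 3.64e-09, quasi-binomial model). The other 17 tested FAM83D sites were not called, and each lay within 10 points of the mean of the 5 lines. At CYB561A3, a lysosomal ascorbate-dependent ferrireductase, a GGACT site (chr11:61349487) had 15.1% and 13.7% in EFO21 against 31.6% to 56.5%, 30.0 points below. A second CYB561A3 site (AGACT, chr11:61349094) was lower as well, with 14.3% and 13.5% in EFO21 against 17.8% to 44.2%.

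At WDR26, a subunit of a ubiquitin ligase, a GGACT site 4336 nt into the last exon had 37.4% and 38.5% in EFO21 against 48.4% to 84.2%. At KPNA6, an importin, a GGACC site 5567 nt into the last exon had 17.5% and 18.9% against 32.8% to 65.2%, and at SAP30L, a subunit of a histone deacetylase complex, a GGACT site at 2647 nt had 43.7% and 45.5% against 54.2% to 82.2%. These were 24.3, 27.1 and 24.3 points below the 5 lines. WDR11 (11.1% and 22.03% in EFO21, 23.4% to 59.1% in the others), the kinetochore gene DSN1 (33.1% and 48.3%, 55.6% to 77.3%), the splicing scaffold SRRM2 (44.6% and 28.6%, 49.2% to 68.5%), POGK (50.2% and 53.2%, 59.0% to 86.7%) and the amino acid transporter SLC1A4 (32.1% and 28.3%, 40.1% to 79.7%) complete the 10. At each of the 10 both EFO21 libraries lay below all 10 others and the adjusted p was at most 0.0189 in both comparisons. Without EFO21 replicate 1 the calls at WDR11, KPNA6 and SLC1A4 were lost against the 5 lines (adjusted p of 0.0967, 0.0606 and 0.0683), and without EFO21 replicate 2 those at KPNA6, SRRM2 and SLC1A4 (0.0669, 0.218 and 0.274).

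The DRACH sites with the largest gains included 2 GGACT sites in KRT10-AS1, a gene antisense to keratin 10 to which the sites were assigned by RefSeq coordinates, since the deposited table gives no gene there. The site at chr17:40834760 (plus strand) had 95.0% and 93.9% in EFO21. The levels in the others were 91.8% and 90.9% for A549, 68.4% and 68.0% for SKOV3, 51.0% and 50.4% for COV644, 32.8% and 36.9% for OE21 and 26.4% and 29.3% for CAOV3, so A549 came close to EFO21 and the call rests on the lower levels of the other 4 lines. The site at chr17:40834853 had 92.8% and 95.0% in EFO21 against 41.9% to 89.9%, and there too A549 came close (88.5% and 89.9%). They were 39.9 and 30.5 points above the 5 lines (adjusted p = 6.02e-41 and 6.09e-25).

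At TPRG1L a GGACT site 1543 nt into the last exon (chr1:3629952) had 85.3% and 88.1% in EFO21 against 39.5% to 78.6%, and the next one downstream, at chr1:3630038, had 42.6% and 43.9% against 11.03% to 32.0%. At ACADVL, the very long chain acyl-CoA dehydrogenase, a GGACT site had 85.5% and 86.5% against 47.4% to 66.1%. At CDK5RAP3 a GAACT site in internal exon 6 had 62.0% and 59.2% against 29.4% to 43.7%. IPO9, an importin (47.3% and 43.7% in EFO21, 0.778% to 28.3% in the others), the snRNP import adaptor SNUPN (53.8% and 44.7%, 8.33% to 27.9%), the deadenylase subunit PAN3 (52.1% and 53.7%, 14.5% to 39.8%) and the exchange factor ARHGEF39 (33.8% and 27.3%, 4.62% to 13.1%) belong to the same group. These 9 sites were between 23.0 and 39.9 points above the 5 lines and outside the range of the other 10 libraries. Without EFO21 replicate 2 the call at PAN3 was lost (adjusted p = 0.0545) in the quasi-binomial model.

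Outside DRACH, 31 (1.14%) of 2723 sites with at least 50 reads were higher and 10 (0.367%) lower in both comparisons without overlap. The widest gap of all was at TMEM203, a membrane protein gene of a single exon, where a GTACT site (chr9:137204634, minus strand) had 10.1% and 10.99% in EFO21 against 75.2% to 94.9%, 75.8 points below (adjusted p = 9.63e-39). Another GTACT site of TMEM203, 494 nt into the exon, had 33.3% and 29.1% in EFO21, within the 12.7% to 43.1% of the others. The other end was a CAACT site of ARHGEF39 (chr9:35661828, minus strand), which had 80.4% and 88.9% in EFO21 against 15.6% to 30.0%, 61.4 points above, 4 nt from the TGACC site named above. TRABD (GGAGA, 4.39% and 8.00% in EFO21, 13.1% to 74.3% in the others) and CSNK1D (GGACG, 40.5% and 51.4%, 54.3% to 76.9%) were lower. NENF (GGATG, 33.8% and 29.7%, 6.33% to 21.9%) and another KRT10-AS1 site (GGATT, 59.1% and 63.7%, 8.57% to 53.5%) were higher. Without EFO21 replicate 1 the calls at CSNK1D (adjusted p = 0.135 against the 5 lines) and NENF (0.167 against the 3 lines) were lost. Base differences between the lines' genomes at or beside these sites were not examined.

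**Figure D3:**
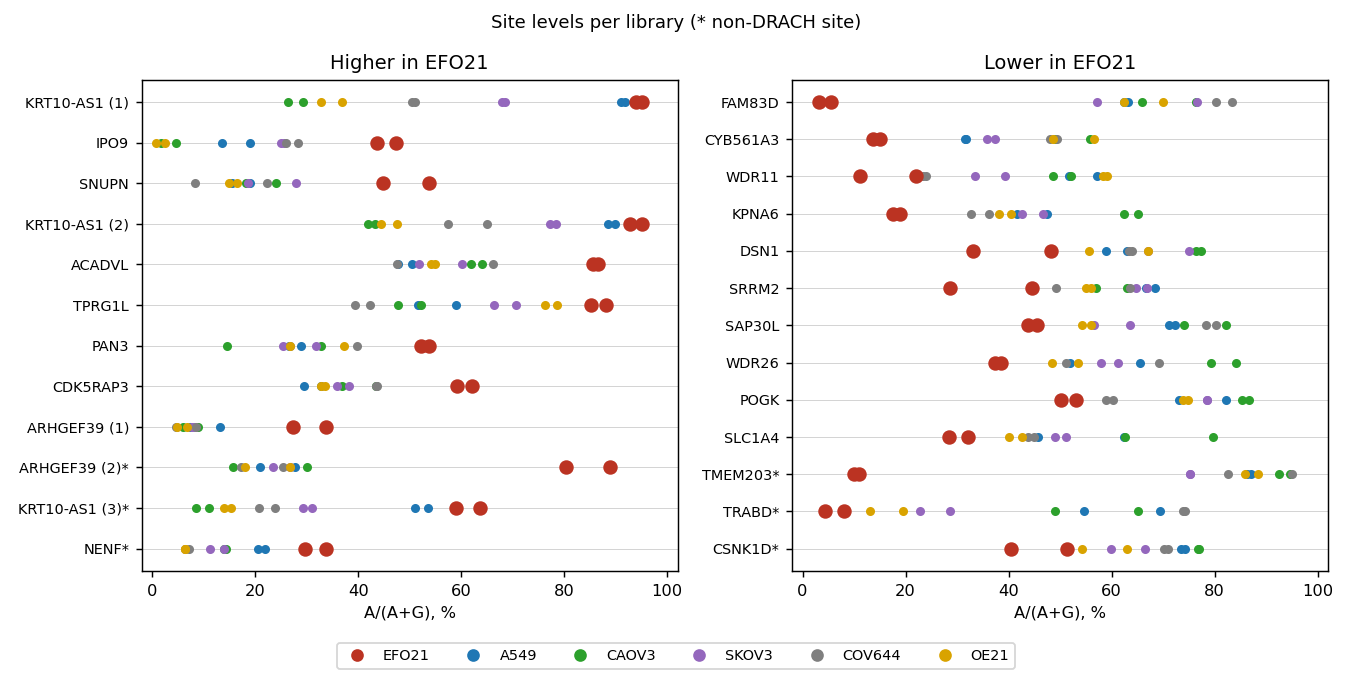
Methylation level in percent at 12 sites with the largest higher calls (left) and the 13 with the largest lower calls (right), for each of the 12 DMSO libraries; EFO21 is drawn with larger points than the 5 other lines and an asterisk marks a site outside DRACH. Both EFO21 libraries lie outside the range of the other 10 at each site drawn, as the rule that chose them required.

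**Figure D4:**
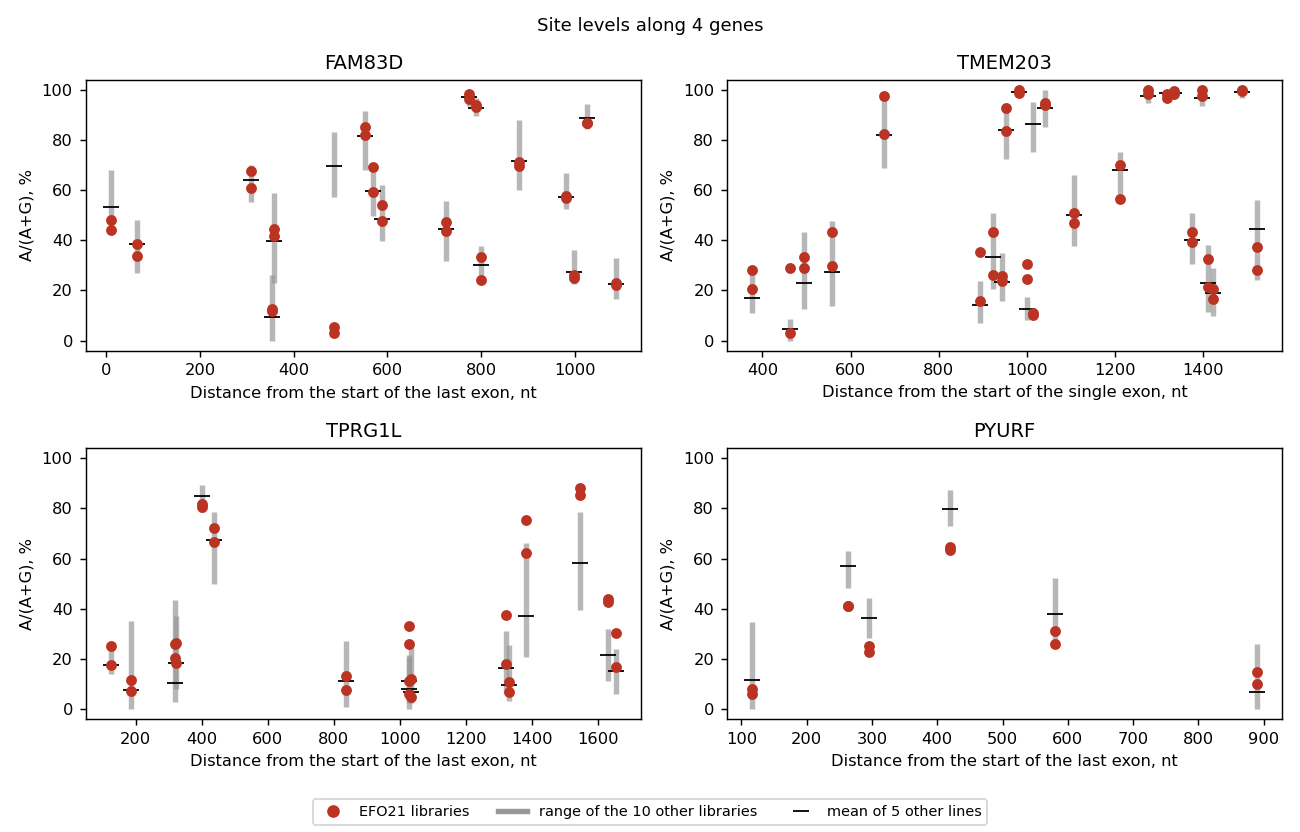
Level in percent at every covered site of FAM83D, TMEM203, TPRG1L and PYURF against distance from the start of the exon in nt; red points are the 2 EFO21 libraries, grey bars the range of the 10 other libraries and black ticks the mean of the 5 lines. In FAM83D the site at 487 nt and in TMEM203 the site at 1014 nt lie far below the range, while in PYURF several sites of the last exon lie at or below its lower end.

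Some genes were lower at several sites. PYURF, a small mitochondrial chaperone gene, had 4 of its 6 tested sites lower in EFO21: the GGACT site at 420 nt of the last exon had 64.8% and 63.6% against 72.9% to 87.4%, and the TGACT site at 264 nt had 41.2% and 41.2% against 48.1% to 63.0%. MCL1, which encodes a short-lived antiapoptotic BCL2 relative, had 6 of 23 sites lower in both comparisons and 1 higher. Its GGACT site at 378 nt of the last exon had 70.1% and 65.8% in EFO21 against 75.4% to 88.1%, and its GAACT site at 891 nt had 28.9% and 30.0% against 29.3% to 52.1%. None of 15 tested sites of MYC was called.

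Summed over the covered sites of each gene, the m6A level of 706 (8.36%) of 8444 genes was higher and that of 306 (3.62%) lower in EFO21 than in the 5 lines; against the 3 lines of like background it was higher in 270 (3.20%) and lower in 577 (6.83%). In both comparisons and without overlap, 160 (1.89%) were higher and 83 (0.983%) lower. These sums include non-DRACH sites and sites listed through EFO21 alone, which favours higher values in EFO21. With DRACH sites only, 311 genes were higher and 466 lower than in the 5 lines, and 244 higher and 791 lower than in the 3 lines. The counts against the 5 lines dropped to 410 higher and 90 lower without EFO21 replicate 1 and to 79 and 72 without EFO21 replicate 2. PKD1, the gene of polycystin 1, stood highest with 67.4% and 71.7% in EFO21 against 40.1% to 55.2% in the others (24.1 points above, adjusted p = 8.13e-07), although 1 of its 13 sites was called; with the mean over sites taken without read weights it was 0.42 points above the 5 lines (limma, adjusted p = 0.92). CDK5RAP3 had 46.9% and 46.8% against 23.2% to 38.3%, 16.1 points above the 5 lines; without read weights it was 4.44 points above (limma, adjusted p = 0.43). GMPR2, a guanosine monophosphate reductase, had 45.9% and 46.0% against 26.95% to 34.1%, with its TAACT site at 49.9% and 49.7% against 27.9% to 36.8%. TAP1, a subunit of the peptide transporter for antigen presentation, had 35.2% and 45.7% against 20.7% to 32.4%, and its AAACT site had 45.9% and 50.7% against 22.7% to 40.1%. INAFM1 (39.7% and 35.1%, 17.9% to 26.1%) and KIAA0895 (22.5% and 30.0%, 6.37% to 16.7%) were the others named. Only 1 of the 3 tested INAFM1 sites and 1 of the 5 tested KIAA0895 sites lay in DRACH. Without EFO21 replicate 2 the calls of INAFM1, KIAA0895 and TAP1 were lost (adjusted p of 0.0748, 0.119 and 0.157, quasi-binomial model), as was that of INAFM1 without EFO21 replicate 1 (0.117). TAP1 also missed the threshold without read weights (13.8 points, adjusted p = 0.0544, limma) and KIAA0895 with DRACH sites alone (14.1 points, adjusted p = 0.401).

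At the lower end, CYB561A3 had 14.3% and 14.0% in EFO21 against 23.5% to 47.2%, 21.4 points below (adjusted p = 0.000147). PYURF had 38.2% and 39.5% against 45.8% to 60.2%, and DEF8 had 42.9% and 41.2% against 52.7% to 63.2%. PANX2, a pannexin channel gene, had 29.7% and 25.6% against 34.3% to 51.1%, with an AGACT site at 43.1% and 34.0% against 61.1% to 82.1%. ESYT2, which tethers the endoplasmic reticulum to the plasma membrane, had 34.4% and 30.7% against 35.1% to 56.0%, a difference of -13.9 points that was -5.95 without read weights (limma, adjusted p = 0.0942). GPATCH2 had 23.1% and 23.95% against 27.5% to 50.9%, but none of its 3 sites was called and the difference turned to 1.15 points above with DRACH sites alone (adjusted p = 0.97); without read weights it was -4.63 points (limma, adjusted p = 0.129). Without EFO21 replicate 1 or 2 the calls of GPATCH2, PANX2 and ESYT2 were lost (adjusted p between 0.0936 and 0.258), and without EFO21 replicate 2 that of DEF8 was too (0.0583).

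Genes of the lists compiled for this tissue moved in both directions. Among 16 measured NRF2 pathway genes, which guard against oxidative stress, 4 were higher and 1 lower in m6A against the 5 lines, and 3 were higher and 0 lower against the 3 lines; over all genes the shares were 8.36% and 3.62%, and 3.20% and 6.83%. KEAP1, the inhibitor of NRF2, had 48.0% and 50.8% in EFO21 against 38.0% to 47.5% in the others, and NFE2L2, which encodes NRF2, had 69.2% and 72.9% against 62.1% to 69.9%. Both gene sums were higher in both comparisons. Of the 23 tested sites of KEAP1, 1 was called higher against the 5 lines, 0 in both comparisons, and 22 were not called. Among 32 cell cycle and growth genes, 5 were higher and 5 lower against the 5 lines and 3 higher and 8 lower against the 3 lines. CDK4, a G1 kinase, had 53.6% and 54.5% in EFO21 against 38.7% to 50.5%, while MCL1 had 34.1% and 33.8% against 35.5% to 49.9% (6.0 points below, adjusted p = 1.2e-05). Of 13 reader and eraser genes none was called in either comparison. Of 8 writer genes 2 were higher (CBLL1 and VIRMA) and 1 lower (RBM15B) against the 5 lines, and 1 was higher and 0 lower against the 3 lines. None of these 3 calls held under every setting: against the 5 lines CBLL1 and RBM15B lost it without EFO21 replicate 1 (adjusted p of 0.15 and 0.0792), VIRMA and RBM15B without EFO21 replicate 2 (0.32 and 0.293), and all 3 with at least 50 reads (0.515 for CBLL1, 0.0741 for VIRMA and 0.242 for RBM15B). METTL3 itself had 48.8% and 49.6% in EFO21 against 28.4% to 51.0% and was not called. Over all genes the median m6A difference was 1.01 points from the 5 lines but -0.647 from the 3 lines of like background.

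The reads at listed sites also give a measure of how much of each transcript was sequenced. The sums of A plus G reads per gene were compared with edgeR's quasi-likelihood test, and levels are given as TMM-normalised CPM, where the total is all reads at listed sites. They are not divided by length, so levels are compared between lines within a gene and never between genes. In bulk RNA, fewer cells of a type and less RNA per cell cannot be told apart. Of 13716 genes, 5279 (38.5%) were higher and 4617 (33.7%) lower in EFO21 at an adjusted p under 0.05; the EFO21 libraries lay above all 10 others in 1799 (13.1%) and below them in 1468 (10.7%). With the covered sites alone, 2765 (32.7%) of 8444 genes were higher and 2782 (32.9%) lower. The contrast averages log levels over the lines, so lines near 0 weigh heavily: 487 of the 5279 higher genes had a level in EFO21 under the plain mean of the 5 lines. One such gene was MSLN (mesothelin), with 116 and 110 in EFO21 and 1437 and 1438 in COV644. Each listed site had a level of at least 25% in some library, so sites listed through EFO21 alone, 53541 of the 120995 listed through it, add to its coverage of the genes that hold them. Genes read almost only in EFO21 entered the table through such sites, so their differences are a description and are given without a p. Counts of list members are to be read against the shares over all genes, 38.5% higher and 33.7% lower.

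The genes that set EFO21 apart most by coverage were read almost only there. CFTR, the chloride channel of secretory epithelia, had 128 and 118 CPM in EFO21 against 0 to 0.115 in the other 10 libraries. CP, which encodes ceruloplasmin, had 2358 and 2218 against 0 to 13.6, 629 times the mean of the 5 lines. PAX2, a transcription factor of the developing kidney and Müllerian duct, had 41.2 and 47.9 against 0 to 0.822. PROM1, the stem cell marker CD133, had 266 and 276 against 0 to 2.67. CLDN16, a claudin of kidney tight junctions, had 18.9 and 16.6 in EFO21 and no read in any of the others, which makes it at least 110-fold higher against a floor of 3 counts per library. LCP1, an actin bundler of blood cells also made by carcinoma lines, had 165 and 185 against 0 to 3.48. IL33, a cytokine of barrier tissue, had 32.0 and 33.4 against 0 to 0.0645, and TMEM273 had 26.7 and 26.2 against 0 to 0.0533.

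A further 4 genes of that top group, PLVAP, TIE1, ECSCR and ROBO4, are known from endothelial cells. TIE1 had 49.1 and 47.7 in EFO21 against 0 to 0.231, PLVAP 66.2 and 54.5 against 0 to 0.289, ECSCR 231 and 222 against 0 to 1.31, and ROBO4 11.98 and 18.1 against 0 to 0.0453. Of the 7 measured markers on the list of endothelial, fibroblast and immune cells, 5 were higher (1 of them under the plain mean of the 5 lines) and 1 lower, and their summed level was 1046 and 1035 in EFO21 against 38.1 to 236 in the others. CDH5, the endothelial cadherin, had 379 and 403 against 0.0568 to 3.45 (log2 difference 9.82), and PECAM1 had 541 and 499 against 0.114 to 10.2. KDR, the VEGF receptor that defines endothelium, stood at 1.17 and 1.07 in EFO21 against 0 to 12.3, PDGFRB at 7.70 and 6.78 against 0 to 1.62, and LUM at 0 and 0.152. VWF, PTPRC, CD3E, CSF1R, LYZ and DCN had no listed site. Whether reads from other cells play a part was not tested.

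The labelled origin was checked against markers of the ovarian and Müllerian lineage. Of 16 measured, 11 were higher and 1 lower in EFO21, with 4 of the 11 outside the range of the others and 3 of the 11 under the plain mean of the 5 lines; the median difference on the log2(level + 1) scale was 1.41, against -0.03 over all genes. CDH6, a cadherin of kidney and ovarian carcinoma, had 2318 and 2474 in EFO21 against 0.172 to 228, 52.7-fold over the mean of the 5 (log2 difference 8.88). EMX2, a homeobox gene of the urogenital ridge, had 43.5 and 41.7 against 0 to 0.346. SOX17 had 210 and 191 against 0.0568 to 76.2, and FOLR1, the folate receptor, 86.2 and 82.7 against 0.0455 to 60.5. PAX8, the lineage factor of Müllerian epithelium, had 252 and 239 in EFO21, above A549 (2.14 and 3.64) and below SKOV3 (367 and 358). WT1 was at 0.881 and 0.533 in EFO21 against 0 to 8.55 and ESR1 at 0 and 0, and MUC16 and MUC1 had no listed site. Lineage factors of Müllerian epithelium were thus read in EFO21, while these other markers of ovarian carcinoma were near 0 or could not be measured.

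General epithelial genes were mostly lower: of 23, 4 were higher, 3 of these under the plain mean of the 5 lines, and 14 lower; their median difference was -1.03 and their summed level was 2099 and 2019 in EFO21 against 2759 to 14256 in the others. KRT7, a simple-epithelium keratin, had 1.64 and 3.12 in EFO21 against 2.97 to 1214 (log2 difference -6.01, adjusted p = 2.27e-12, edgeR). CDH1, the epithelial cadherin, had 8.22 and 8.99, within the 5.57 to 965 of the others, where SKOV3 had 5.57 and 7.33. SPINT2, a protease inhibitor, had 5.70 and 4.27 against 24.7 to 238, and GRHL2, an epithelial transcription factor, had 0.587 and 0.686. EPCAM was still read at 163 and 147 against 3.37 to 437.

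Of 21 genes of mesenchymal state, 13 were higher, 3 of these under the plain mean of the 5 lines, and 6 lower, with a median difference of 1.03. Their summed level was 3761 and 3847 in EFO21, within the 897 to 4579 of the others. CCN2, a target of YAP and TGF-beta signalling, had 1117 and 1160 in EFO21 against 3.58 to 76.2, 35.5-fold over the mean of the 5. TAGLN, an actin-binding protein of smooth muscle, had 647 and 608 against 1.02 to 164, and CDH2, the neural cadherin, 438 and 433 against 4.11 to 107. Not all members went that way: SNAI2 had 0.176 and 0.229 in EFO21 against 1.09 to 229, TGFBI 19.5 and 20.9 against 25.2 to 890, COL1A1 6.99 and 10.5 against 12.4 to 173, and FN1 3.58 and 4.19 against 1.25 to 392. Basement membrane collagen split by chain. COL4A1 had 1287 and 1400 in EFO21 at covered sites against 17.2 to 367, and COL4A2 627 and 674 against 12.3 to 157, while COL4A5 had 0 and 0.152 at all listed sites against 0.635 to 213. Squamous markers were lower in 8 of 16 and higher in 1, which was under the plain mean of the 5 lines; KRT5 had 0.47 and 0.152 in EFO21 against 0.682 to 4267.

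Genes of the NRF2 pathway were mostly lower. Of 23 measured pathway genes, 1 was higher and 18 lower in EFO21, 8 of the 18 below all other libraries, with a median difference of -1.91 and a summed level of 1358 and 1318 in EFO21 against 1574 to 11399. NQO1, a quinone reductase, had 45.9 and 39.9 in EFO21 against 52.1 to 456 (log2 difference -2.11, adjusted p = 1.51e-10, edgeR). TXNRD1, thioredoxin reductase, had 61.3 and 64.5 against 148 to 729, ABCC3, a conjugate exporter, 21.3 and 20.0 against 55.7 to 522, and SRXN1, sulfiredoxin, 162 and 161 against 247 to 2670. AKR1C1, an aldo-keto reductase, had 1.82 and 1.22 against 3.79 to 1157, and its close paralogue AKR1C2 had 5.35 and 5.33 against 8.16 to 2887; reads shared between such paralogues cannot be assigned with certainty. The gene that was higher was KEAP1, with 298.3 and 249.1 in EFO21 against 112.2 to 248.7. NFE2L2 had 218 and 248 against 111 to 552 and was not called (adjusted p = 0.0804, edgeR). PTGR1, another enzyme of detoxification outside the list, had 8.34 and 5.89 at covered sites against 34.8 to 312.

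Genes of the m6A machinery had smaller differences. Of 8 writer genes, 2 were higher and 3 lower: VIRMA, the scaffold of the complex, had 303 and 319 in EFO21 against 184 to 281 (1.35-fold over the mean of the 5, adjusted p = 9.11e-05, edgeR), and RBM15B had 135 and 137 against 155 to 236. METTL3 (29.1 and 28.9 in EFO21, 9.06 to 51.6 in the others), METTL14 (78.4 and 65.98, 27.4 to 122) and ZC3H13 (145 and 140, 93.9 to 224) were not called, with adjusted p of 0.528, 0.546 and 0.199. At covered sites ZC3H13 was called higher, but not with non-DRACH sites only (log2 difference 0.19, adjusted p = 0.115, edgeR). The lower call of RBM15 was lost against A549, CAOV3 and SKOV3 (log2 difference -0.0079, adjusted p = 0.953, edgeR). Of 15 readers and erasers, 6 were higher and 2 lower. IGF2BP2, which stabilises bound mRNA, had 390 and 411 in EFO21 against 31.5 to 211 (log2 difference 2.30, SE 0.08), FMR1 had 105 and 110 against 22.1 to 51.1, and YTHDF3, a decay-promoting reader, had 100.9 and 102.9 against 243 to 450 (log2 difference -1.61, SE 0.09, adjusted p = 4.18e-10, edgeR). MAT2A, which makes the methyl donor S-adenosylmethionine, had 97.4 and 87.3 in EFO21 against 127 to 320 (log2 difference -1.07, SE 0.13). The METTL16 hairpin sites of MAT2A, 4 ACAGA adenosines in its last exon, averaged 45.3% and 43.8% in EFO21, against line means of 63.3% for A549, 60.4% for COV644, 48.7% for OE21, 37.4% for CAOV3 and 32.3% for SKOV3, and none was called.

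Antigen presentation genes were higher in 13 and lower in 4 of 23, with 8 of the 13 above all other libraries; over all genes 38.5% were higher, 33.7% lower and 13.1% above all others. CIITA, the master regulator of MHC class II, had 13.8 and 16.2 in EFO21 against 0 to 2.35; HLA-DRA had 20.6 and 16.8 against 0 to 8.96 and CD74, the class II invariant chain, 177 and 204 against 0 to 100. TAP1 had 47.5 and 39.2 against 46.6 to 112 and was lower, as was TAP2. Of 36 interferon-stimulated genes 22 were higher and 8 lower, 7 of the 22 under the plain mean of the 5 lines. Their summed level was 3410 and 3359 in EFO21, within the 1192 to 5517 of the others. IFI6 had 316 and 330 against 8.1 to 219. CXCL1, a neutrophil chemokine, had 476 and 432 at covered sites against 2.53 to 19.3 (log2 difference 5.94, SE 0.09, adjusted p = 4.71e-13, edgeR).

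Growth control genes split. EGFR, the epidermal growth factor receptor, had 127 and 142 in EFO21 against 441 to 7774, 16.1-fold below the mean of the 5 lines, while MET, the hepatocyte growth factor receptor, had 1428 and 1469 against 192 to 774. WWTR1, the YAP partner TAZ, had 749 and 830 against 54.7 to 295. CCNE1 had 135 and 149 against 24.3 to 77.9 and E2F3 had 434 and 486 against 72.6 to 197, both genes of entry into S phase. CDKN1B, a CDK inhibitor, had 46.1 and 43.5 against 75.8 to 220. SLC7A5, the large neutral amino acid transporter, had 251 and 255 at covered sites against 1570 to 13853. Of 25 p53 targets 8 were higher and 11 lower, beside 38.5% and 33.7% over all genes: SESN1 had 117 and 134 against 26.3 to 55.0, PHLDA3 had 3.88 and 2.74 against 18.8 to 108. In homologous recombination, ATM had 300 and 301 against 34.0 to 187 and BRCA1 had 59.3 and 55.8 against 87.7 to 280. Of 38 HOX and other developmental genes, 25 were higher, 4 of these under the plain mean of the 5 lines, and 8 lower. Their summed level was 1853 and 1879 in EFO21, within the 666 to 2219 of the others. HOXB4 had 153 and 150 in EFO21 against 1.27 to 50.6 and HOXA5 72.8 and 72.3 against 8.51 to 35.3.

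Several genes that all other lines expressed were nearly unread in EFO21. SPPL3, an intramembrane protease that trims glycosyltransferases, had 0.235 and 0.0762 in EFO21 against 65.9 to 218 (adjusted p = 3.71e-14, edgeR), from 4 and 1 reads. EMC10, a subunit of the membrane protein insertion complex, had 0.0587 and 0.229 against 53.7 to 201.3, and TRIM4, a ubiquitin ligase, 0.176 and 0.0762 against 32.7 to 268. Among genes next to them on the chromosome, beside SPPL3, UNC119B had 63.9 and 62.8 in EFO21 against 79.0 to 178, and beside TRIM4, ZKSCAN1 had 321 and 348 against 184 to 815. Beside EMC10, JOSD2 had 20.9 and 14.4 in EFO21 against 17.1 to 60.7, while GARIN5A had 0 and 0 against 0.0453 to 2.03, little in every line; both were called lower. VEGFC, a lymphatic growth factor, had 0.0587 and 0 against 5.44 to 29.8, and MSC, CACNA2D1 and CCBE1 had no read in EFO21 against lowest values of 0.555, 0.247 and 0.803 in the others. LRATD1, INSL4, SLITRK6 and ADGRF4, at 0 or 0.0587 in EFO21, also came near 0 in some of the other lines.

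Genes read mainly in EFO21 could be given an m6A level there but no comparison. Over DRACH sites with at least 20 reads in both EFO21 libraries, CDH5 averaged 63.4% and 63.7% at 24 sites, CDH6 59.2% and 59.0% at 24, PECAM1 40.2% and 42.6% at 19, and CFTR 56.5% and 54.8% at 10. PAX2 averaged 75.1% and 75.1% at 6 sites, SOX17 70.1% and 72.0% at 6 and CP 22.7% and 21.7% at 5. TIE1 averaged 15.4% and 29.6% at 3 sites and PLVAP 51.3% and 44.1% at 8, so the replicates of these 2 genes lay farther apart. Listing itself required a high level in some library, so these means are not those of all DRACH motifs in the genes.

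Coverage also differed along the genome. The median log2 difference from the 5 lines was 0.48 over 662 genes of chromosome 5, of which 399 were higher and 111 lower, 0.31 over 493 genes of chromosome X and 0.30 over 706 genes of chromosome 6. It was -0.51 over 319 genes of chromosome 22, of which 56 were higher and 190 lower, -0.38 over 546 genes of chromosome 9 and -0.36 over 532 genes of chromosome 10. On chromosomes 5, 9, 10 and 12 both EFO21 libraries lay outside the range of the other 10 in the median relative to all lines. The values were 0.34 and 0.37 against -0.35 to 0.09 on chromosome 5, and -0.17 and -0.16 against -0.03 to 0.12 on chromosome 12. Copy number was not measured, and its part in these values was not tested.

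Across genes, m6A and coverage differences of EFO21 ran weakly against each other: Spearman's rho was -0.22 over 8444 genes, as a description of genes that share libraries and reads. Computed alike, rho was -0.26 for SKOV3, -0.16 for CAOV3, -0.05 for A549, 0.07 for COV644 and 0.12 for OE21, so its sign differed among lines. The median log2 coverage difference was 0.45 in the 282 genes whose m6A was lower in both comparisons, 0.00 in the 240 that were higher and -0.03 in the 7922 others.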

How the data were processed

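GLORI libraries were made from poly(A) RNA of the cell lines, per the labels' protocols. Reads were processed with cutadapt and STAR on GRCh38, per the submitters' processing notes; their versions, and how sites were called, were not given in the sources used here. Per site, line and library, the deposited table gives the count of A plus G reads and the fraction of A among them, as the authors computed it; fraction times count was whole within 1e-06 for 100% of values, and A and G counts were recovered this way. Listed sites had at least 20 reads and a level of 25% or more in some library. Reads are not independent molecules, so counting precision is an upper limit.

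Sites with at least 20 reads in all 12 DMSO libraries were tested with a logistic model per site (0.25 added to A and to G), with a quasi-binomial dispersion moderated by limma 3.58.1 and not below 1, on the difference of EFO21 from the equally weighted other lines, with Benjamini-Hochberg adjustment over all sites at 0.05. In the site tests the moderation gave every site the same dispersion, 1.66. The same model was used on sums per gene. Summed A plus G counts per gene were tested with edgeR 4.0.16 (TMM, quasi-likelihood; filterByExpr for all listed sites) in R 4.3.3. DESeq2 1.42.0 was an alternative. The methods were run on simulated data in which unchanged sites had the same level in every line. The simulation held no listing rule and no background that differed by line, so it does not cover these features. Replicates of a line differed by more than counting error, with a chi-square of 2.18 to 8.20 per degree of freedom. For m6A at the tested sites the spread was smaller, with a dispersion of 1.18 in OE21 to 2.34 in SKOV3 and 1.85 in EFO21.

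The members and gene lists were chosen with earlier results of these data known. The named sites were the 10 higher and 10 lower DRACH sites, and the 3 and 3 others, with the largest difference among those called in both comparisons, with at least 50 reads in every library and no overlap, and 1 per gene. Genes were named by m6A alike (6 and 6, with at least 3 sites and 50 reads) and by coverage (12 and 12 over all listed sites with an average of 200 reads or more, and 6 and 6 over covered sites). From each list the members with the largest differences were named; others, and further sites of a named gene, were chosen after their values were seen. Sites the table gives no gene were placed by RefSeq coordinates on GRCh38.p14, so 2 named KRT10-AS1 sites come from 1 gene. One higher site that met the rule and some genes of the lists are not reported here.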

Additional observations from a re-analysis of the deposited data

How the results depend on the processing

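Counts of called sites depended on the model and on which sites entered. Against the 5 lines, the 3476 higher sites became 1145 with at least 50 reads, 28 with limma on arcsine levels, 139 with limma on background-corrected levels, 832 with sites listed through another line and 683 with DRACH sites of 25% or more; the 1255 lower sites became 14 and 300 under the arcsine and corrected fits. Against the 3 lines of like background, the 792 higher sites became 15, 149, 486 (dispersion of each line) and 525 (listed through another line), and the 1543 lower sites 9 and 249 under those 2 fits. The main model weighted a level by its reads and shared its dispersion over sites, while the limma fits weighted all libraries alike. The cause of these changes was not tested. Of the 26 named sites, 14 (5 lines) and 15 (3 lines) missed the threshold with limma on arcsine levels, with adjusted p of 0.0505 to 0.157, and 2 and 2 with limma on corrected levels; none changed direction. With sites listed through another line, 24 of the 26 could be tested and kept their call. The TGACC site of ARHGEF39 and the NENF site could not be, since among the DMSO libraries only those of EFO21 reached 25% there. The 706 genes with higher m6A became 311 with DRACH sites only and 333 with 50 reads, the 306 lower ones 466 with DRACH sites only and 90 with unweighted means, and against the 3 lines unweighted means gave 109 and 101. GPATCH2 turned to 1.15 and 1.90 points higher (adjusted p = 0.97 and 0.93) with DRACH sites only, and PKD1 to 0.94 points lower than the 3 lines (-0.94, adjusted p = 0.80) with unweighted means. The coverage counts at covered sites became 1590 and 1543 with 50 reads, where fewer genes were tested. LRATD1 and INSL4 lost their coverage call with non-DRACH sites only. The mean DRACH difference was -2.22 after background correction, -0.0556 at sites of 50% or more and -0.899 against the 3 lines.

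Leaving out 1 library in turn gave, against the 5 lines, 1670 to 5004 higher and 652 to 1494 lower sites, and 79 to 851 and 72 to 336 genes by m6A. Against the 3 lines it gave 473 to 1072 and 687 to 1665 sites, and 55 to 328 and 146 to 607 genes. The lowest values came without EFO21 replicate 2 for higher sites (473) and for genes (79, 72 and 55), without EFO21 replicate 1 for lower sites (652 and 687) and genes (146), and without OE21 replicate 2 for higher sites (1670); without A549 replicate 1, 161 genes were higher than in the 3 lines. Coverage gave 2190 to 2797 and 2081 to 2828 genes at covered sites, 4632 to 5325 and 3859 to 4653 over all listed sites, and the mean DRACH difference was -0.516 to -0.201. For m6A, replicate numbers did not pair the libraries: deviations of same-numbered libraries correlated at -0.032 to 0.016. For coverage the correlations were larger and of both signs, from -0.485 to 0.512 (median -0.025), with 5 of 15 pairs of lines over 0.1. With the replicate number as a block, 3613 and 1271 sites (5 lines), 815 and 1550 sites (3 lines), 726 and 302 genes and 278 and 582 genes by m6A, and 2716 and 2704 (covered) or 5213 and 4545 genes (all listed) by coverage were called.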

Other observations

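Other gene groups moved in both directions by coverage. Of 29 measured splicing factors, 9 were higher and 10 lower in EFO21, shares near the 38.5% and 33.7% over all genes: SRSF6 had 623 and 760 CPM in EFO21 against 207 to 485 in the other 10 libraries, HNRNPA1 had 48.5 and 55.8 against 11.7 to 30.2, and SON, a nuclear speckle scaffold, had 583 and 557 against 612 to 1450. Of 37 ribosomal protein genes 14 were higher and 12 lower, again near those shares, with a median difference of 0.14 on the log2(level + 1) scale. Of 12 measured genes on the list of cancer-testis and germline genes, 6 were higher (1 of them under the plain mean of the 5 lines) and 0 lower. MAGED2, a list member read in every line, had 222 and 183 in EFO21 against 13.7 to 62.0. MAGEA4, MAGEC1, CTAG1B and SSX1 had no listed site. Of 12 imprinted genes 7 were higher (1 of them under the plain mean of the 5 lines) and 4 lower, and IGF2, a fetal growth factor, had 11.5 and 10.9 against 0 to 2.55. Of 11 genes of methionine metabolism and other RNA methyltransferases, 4 were higher and 3 lower. MTR, methionine synthase, had 161 and 178 in EFO21 against 97.9 to 145, and ZCCHC4, the 28S rRNA methyltransferase, had 9.87 and 10.5 against 16.2 to 30.1.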
